A study of Mus musculus with 4 samples.

Results

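Cav1, Gm28085, Tox2, Jaml, Rhox8 and Prss43 are 6 of the 21495 genes counted in single cells of the mouse gonad and mesonephros. They were chosen by their values in these data, as genes with low levels in pre-supporting cells lacking the miR-17~92 microRNA cluster relative to XY control cells. Their low ratios are therefore a description and not a finding, and no test is attached to them. The XX control, which does not enter those ratios, was set beside them to see which of the 6 genes were also low in female pre-supporting cells at the same stage. In pre-supporting cells Tox2 and Jaml were low in KO E11.5 and in XX control cells as well. In KO E11.75 they were nearer the XY control, at 11.1 CPM each against 13.7 for Tox2 and 16.4 for Jaml. Gm28085 and Prss43 were low in both KO samples and kept in XX control cells. Cav1 and Rhox8 were lowest in KO E11.5 and intermediate in KO E11.75, but differed in XX control cells. There Rhox8 was kept (20.3 CPM against 19.4 in XY control cells) and Cav1 was lower (13.7 against 25.6).

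There were 4 samples and 1 sample per group, each a pool of several pairs of gonads with mesonephros, so no group had replicates and no p-value could be given. The XY control E11.5 embryos were grown from unmodified G4 cells, an XY embryonic stem cell line of C57BL/6J and 129 hybrid background, by tetraploid aggregation. Embryos of the 2 deletion groups, XY KO E11.75 and XY KO E11.5 (abbreviated by leaving out XY), were made in the same way from G4 cells with a homozygous CRISPR/Cas9 deletion of miR-17~92, selected as clones whose number for these samples is not given in the sources used here. Deletion and clone can therefore not be told apart. XX control E11.5 embryos came from matings of C57BL/6J males with 129 females, and the labels give the strain C57BL/6 x 129S4/SvJae for all 4 samples. Sex and the way the embryos were made can therefore not be told apart where the XX control is set beside the XY samples. No control of E11.75 was profiled, so stage and deletion cannot be told apart in KO E11.75.

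The supporting lineage builds the somatic niche of germ cells. Its pre-supporting cells are bipotential: in XY gonads the Y-linked factor SRY turns on Sox9 and the cells become Sertoli cells, whereas in XX gonads WNT4, RSPO1 and FOXL2 direct them to granulosa cells. The 6 genes have unrelated roles. Caveolin 1 (Cav1) forms the coat of caveolae, Tox2 is an HMG-box nuclear factor, and Jaml is an adhesion molecule of the junctional adhesion family that is best known from leukocytes. Rhox8 is a homeobox gene of the X-linked reproductive homeobox cluster, Prss43 belongs to a cluster of serine proteases known from the testis, and Gm28085 is annotated as an antisense RNA. microRNAs pair through their seed with sites in 3′ UTRs and lower the level or translation of the transcript, so that loss of a microRNA is known to relieve its direct targets.

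The genes lay at separate loci of mm10 (GENCODE M21). Cav1 spans chr6:17306335-17341452 on the plus strand and Tox2 chr2:163203125-163324170 on the plus strand. Jaml, Gm28085 and Prss43 are on chromosome 9: Jaml at chr9:45079183-45108534 on the plus strand, Gm28085 at chr9:96027101-96040673 on the minus strand and Prss43 at chr9:110826690-110831839 on the plus strand. Rhox8 is at chrX:37874778-37878944 on the minus strand. Gm28085 lies entirely within Xrn1, which is on the opposite strand.

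The microRNAs removed in the KO are shown because their seeds define which sites to look for in the 6 genes. Mature sequences are from RefSeq (GRCm38.p6) and capitals mark the seed, bases 2 to 8. They fall into 4 seed families: miR-17 with miR-20a, miR-18a alone, miR-19a with miR-19b, and miR-92a alone.
mmu-miR-17-5p: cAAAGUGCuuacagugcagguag
mmu-miR-20a-5p: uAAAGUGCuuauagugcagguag
mmu-miR-18a-5p: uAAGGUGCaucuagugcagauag
mmu-miR-19a-3p: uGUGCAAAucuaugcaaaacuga
mmu-miR-19b-3p: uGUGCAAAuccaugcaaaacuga
mmu-miR-92a-3p: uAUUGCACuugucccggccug

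None of the 5 protein-coding members had an 8mer site, which pairs with the whole seed and has an A opposite base 1, in its longest annotated 3′ UTR. Over all genes 2204 of 17348 (12.7%) had one. Only Cav1 and Rhox8 held 7-base sites, 2 each, against 45.2% of all genes with a site of either kind. Tox2, Jaml and Prss43 held none, and Gm28085 is noncoding. The 4 sites are shown in 30 bases of context, with the site in capitals.
Cav1 miR-17 site: agtcttgccgaCACTTTAccaacctgctac
Cav1 miR-92 site: tgcaaagccctTGCAATAgtctgcaatgct
Rhox8 miR-18 site: tccctgcagggGCACCTTtccctagagatt
Rhox8 miR-92 site: cctctctcattTGCAATAaagtgaaatctc

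RefSeq lists promoters for 3 of the 6 genes, Cav1 (2 promoters), Tox2 (5) and Jaml (1). The words AACAAT for SOX factors, CAAGGTC for NR5A1, AGATAA for GATA factors and CTTTGA for TCF and LEF factors were searched on both strands from 250 bases before to 50 bases after each start. The SOX word was found in 10.7%, the NR5A1 word in 3.96%, the GATA word in 11.2% and the TCF/LEF word in 16% of 32851 promoters. Among the members the SOX word occurred once, 134 bases before the first start of Tox2, and the TCF/LEF word once in Jaml, 9 bases after its start, and in 2 overlapping promoters of Tox2. Neither Cav1 promoter held any of the 4 words. A match describes the letters and is no evidence of binding. The 250 bases before the start of Tox2 and Jaml, which were low in the same 2 samples in pre-supporting cells, are chr2:163202877-163203126 and chr9:45078933-45079182 on the plus strand (GRCm38.p6). Capitals mark the SOX word.
Tox2: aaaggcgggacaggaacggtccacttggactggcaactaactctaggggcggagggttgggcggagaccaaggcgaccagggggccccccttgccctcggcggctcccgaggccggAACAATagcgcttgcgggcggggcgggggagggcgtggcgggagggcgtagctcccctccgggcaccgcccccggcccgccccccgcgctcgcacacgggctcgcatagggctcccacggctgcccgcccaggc
Jaml: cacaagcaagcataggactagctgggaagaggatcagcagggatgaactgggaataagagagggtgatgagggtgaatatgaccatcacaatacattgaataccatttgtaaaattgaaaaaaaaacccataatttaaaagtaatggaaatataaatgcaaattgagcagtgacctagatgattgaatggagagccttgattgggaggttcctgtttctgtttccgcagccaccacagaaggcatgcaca

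Counts of unique molecular identifiers (UMIs) were available for 52745 cells and summed per sample and cell type. Pre-supporting cells numbered 1641 in the XY control E11.5, 1084 in KO E11.5, 924 in KO E11.75 and 352 from XX control E11.5 embryos, with totals of 4589289 to 7884234 UMIs. Median depth was 4522 to 5349 UMIs per cell in the 3 XY samples and 17498.5 in XX control cells, which had been filtered differently by the authors. All 7 markers of the type (Gata4, Wt1, Nr5a1, Runx1, Wnt4, Lhx9 and Kitl) were higher in pre-supporting cells than in the other cells of each sample. Levels are given as UMIs scaled to a total of 1e6 (CPM), and all intervals are 95% intervals that cover counting error only. Between any pair of samples 17 to 123 cell barcodes were shared, at most 0.954% of a sample. Sry was at 0 UMIs in XX pre-supporting cells and at 14.6 CPM in XY control cells. Mir17hg, the host gene of the cluster, was at 9.39 CPM in XY control cells, 99.0 in KO E11.5, 108 in KO E11.75 and 7.96 in XX control cells. These 3′ counts do not read the microRNAs themselves and so are no check of the deletion.

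All 6 genes were at least 2-fold lower in KO E11.5 than the XY control, against 3% of the 11009 genes that reached 50 UMIs when both samples were added. This count follows from the choice. They ranked 2 (Tox2), 4 (Jaml), 6 (Rhox8), 7 (Prss43), 12 (Cav1) and 14 (Gm28085) from the lowest ratio, with H19 at rank 1 and Unc45b and Olfr148 at ranks 3 and 5. In KO E11.75, 4 of the 6 genes were at least 2-fold lower than the XY control, against 2.2% of 11041 genes. In the XX control, 2 of the 6 were, against 2.26% of 11171 genes. The genes were chosen for levels that were high in the XY control relative to KO cells. Those called reached the minimum of 50 UMIs through the XY control, so nothing is read from these counts either. The median log2 ratio of the members in these 3 comparisons was −3.70, −1.65 and −0.54, beside −0.09, 0.19 and −0.11 for all genes. The 3 comparisons share the XY control, so their values stand side by side only.

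**Figure D1:**
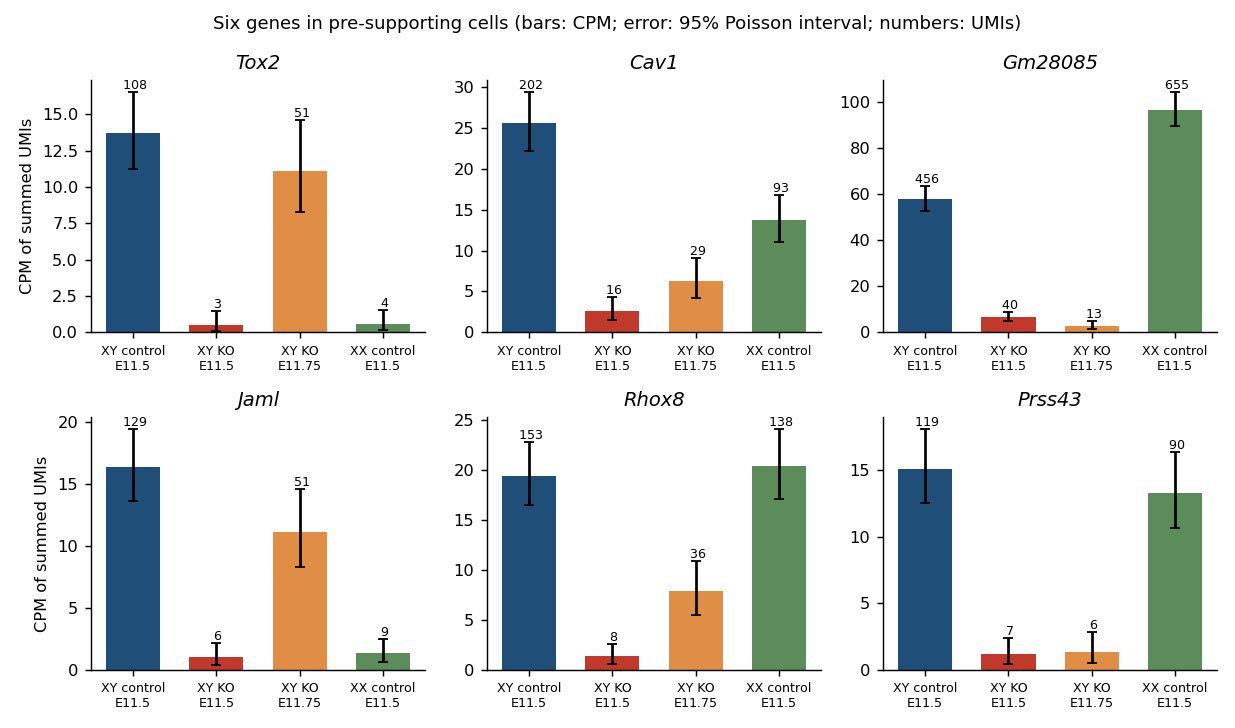
CPM of the 6 genes in pre-supporting cells of the 4 samples, 1 panel per gene with its own axis from 0. Bars are the CPM of summed UMIs, error bars are 95% Poisson intervals and the numbers above are UMIs. Tox2 and Jaml were low in KO E11.5 and the XX control, whereas Gm28085 and Prss43 were low in both KO samples.

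Tox2 and Jaml formed the first pattern. Tox2 was at 13.7 CPM in XY control cells (108 UMIs, interval 11.2 to 16.5), at 0.498 in KO E11.5 (3 UMIs), at 11.1 in KO E11.75 (51 UMIs) and at 0.590 in XX control cells (4 UMIs). The intervals of KO E11.5 and the XX control lay far below those of the other 2 samples. The KO E11.5 level was 27.5-fold below the XY control (9.17 to 136), and the XX level was 23.2-fold below it (8.81 to 86.8). The log2 ratio of KO E11.75 over the XY control was −0.29, with an interval of −0.81 to 0.19 that includes 0.

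Jaml was at 16.4 CPM in XY control cells (129 UMIs), 0.995 in KO E11.5 (6 UMIs), 11.1 in KO E11.75 (51 UMIs) and 1.33 in XX control cells (9 UMIs). It was 16.4-fold lower in KO E11.5 (7.35 to 45.6) and 12.3-fold lower in XX control cells (6.30 to 27.6) than the XY control. In KO E11.75 its log2 ratio was −0.55 (−1.06 to −0.08), a smaller difference whose interval excluded 0. Scaling by TMM, which centres the median of all genes near 0, moved all ratios of KO E11.75 over the XY control by −0.20, to −0.49 (−1.01 to −0.007) for Tox2 and −0.75 (−1.25 to −0.28) for Jaml. Sox9, the factor that drives Sertoli differentiation, was low in the same 2 samples, with 199.6 CPM in XY control cells, 20.1 in KO E11.5, 88.03 in KO E11.75 and 9.29 in XX control cells. Unlike Tox2, Sox9 was 2.27-fold lower in KO E11.75 than the XY control (2.03 to 2.54). Tox2 and Jaml could hardly be compared between KO E11.5 and the XX control, since 3 against 4 and 6 against 9 UMIs leave intervals of −3.02 to 2.32 and −2.19 to 1.24 for the log2 ratio.

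Gm28085 and Prss43 formed the second pattern. Gm28085 was at 57.8 CPM in XY control cells (456 UMIs), 6.63 in KO E11.5 (40 UMIs), 2.83 in KO E11.75 (13 UMIs) and 96.6 in XX control cells (655 UMIs). It was 8.72-fold lower in KO E11.5 (6.30 to 12.4) and 20.4-fold lower in KO E11.75 (11.82 to 38.6) than the XY control. The XX control was higher than the XY control by 0.74 on the log2 scale (0.57 to 0.92), so that both controls stood above both KO samples.

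Prss43 was at 15.1 CPM in XY control cells (119 UMIs), 1.16 in KO E11.5 (7 UMIs), 1.31 in KO E11.75 (6 UMIs) and 13.3 in XX control cells (90 UMIs). Its fold differences from the XY control were 13.0 lower (6.12 to 33.0) in KO E11.5 and 11.54 lower (5.15 to 32.1) in KO E11.75. The 2 controls differed by a log2 ratio of −0.18 (−0.60 to 0.22). The sum of 5 adrenal cortex markers (Cyp11a1, Star, Cyp21a1, Mc2r and Akr1b7) in pre-supporting cells moved with these 2 genes, at 103 CPM in XY control cells, 35.0 in KO E11.5, 21.6 in KO E11.75 and 162 in XX control cells. Most of the XY control sum came from Cyp11a1, with 555 UMIs there and 24 in KO E11.75. Of the 5, Cyp21a1 was at 0 in both KO samples and Akr1b7 at 0 in KO E11.5, and none was at 0 in the controls. In cells annotated as adrenal Gm28085 had 0 UMIs in XY control cells and 3 in XX control cells, and Prss43 had 1 and 0. The sum of 5 germ cell markers moved in the same way, at 54.4, 29.4, 25.7 and 82.1 CPM with none at 0. In cells annotated as germ cells Gm28085 had 4 UMIs in the XY control (0.573 CPM) and 1 in the XX control (0.277 CPM). The part of these cells in the result was not tested.

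Cav1 and Rhox8 formed the third pattern by their KO levels, but differed in the XX control. Cav1 was at 25.6 CPM in XY control cells (202 UMIs), 2.65 in KO E11.5 (16 UMIs), 6.32 in KO E11.75 (29 UMIs) and 13.7 in XX control cells (93 UMIs). It was 9.65-fold lower in KO E11.5 (5.80 to 17.2), 4.05-fold lower in KO E11.75 (2.74 to 6.21) and 1.87-fold lower in XX control cells (1.45 to 2.41) than the XY control. All 4 samples thus had different levels, with the XX control between the XY control and both KO samples.

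Rhox8 was at 19.4 CPM in XY control cells (153 UMIs), 1.33 in KO E11.5 (8 UMIs), 7.84 in KO E11.75 (36 UMIs) and 20.3 in XX control cells (138 UMIs). It was 14.6-fold lower in KO E11.5 (7.24 to 34.5) and 2.47-fold lower in KO E11.75 (1.71 to 3.66) than the XY control. The log2 ratio of the XX control over the XY control was 0.07 (−0.27 to 0.41), and −1.20 (−1.48 to −0.93) when Sertoli cells, of which XX gonads held 2, were merged with pre-supporting cells. The same merge brought the KO E11.75 ratio to −0.85 (−1.12 to −0.58), under 2-fold. Of the 8 UMIs in KO E11.5, 7 came from 1 of its 2 technical runs.

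**Figure D2:**
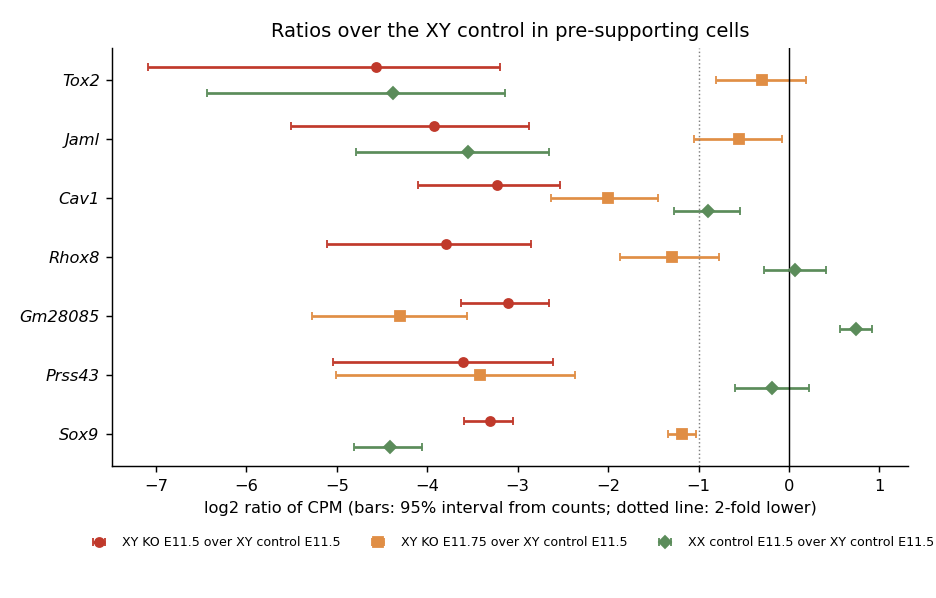
Log2 of the CPM ratio to the XY control E11.5 in pre-supporting cells for KO E11.5 (circles), KO E11.75 (squares) and the XX control (diamonds), with 95% intervals from the counts. The dotted line marks 2-fold lower, and Sox9 is shown for comparison. Red points lie left of the dotted line for all 6 genes, which follows from the choice, whereas the XX points do so for Tox2 and Jaml.

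The XX control can be set against the KO samples directly, but the KO E11.5 values are those that chose the genes, so nothing is read from that count. KO E11.5 was at least 2-fold lower than the XX control for 4 of the 4 members with enough UMIs (Cav1, Gm28085, Rhox8 and Prss43), beside 3.04% of all genes. KO E11.75 was at least 2-fold lower than the XX control for the same 4 genes of 6, beside 2.97%. These 4 reached the minimum of 50 UMIs through the XX control, so nothing is read from that count either. Tox2 and Jaml were not in the first count because both samples were low and together held under 50 UMIs. The fold differences from the XX control in KO E11.5 were 5.17 for Cav1 (3.02 to 9.41), 14.6 for Gm28085 (10.6 to 20.6), 15.3 for Rhox8 (7.57 to 36.2) and 11.4 for Prss43 (5.33 to 29.2). In KO E11.75 Tox2 and Jaml were above the XX control, with log2 ratios of 4.08 (2.79 to 6.17) and 3.002 (2.03 to 4.27).

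The KO samples also differed from each other, in a comparison chosen after the values were seen. From KO E11.5 to KO E11.75 the level was 22.3-fold higher for Tox2 (7.22 to 112), 11.2-fold higher for Jaml (4.79 to 31.8), 5.91-fold higher for Rhox8 (2.70 to 14.7) and 2.38-fold higher for Cav1 (1.25 to 4.69). Gm28085 was instead 2.34-fold lower (1.23 to 4.77), the 1 of 3 members with enough UMIs that was at least 2-fold lower, beside 1.12% of all genes. The KO E11.5 values chose the members, so nothing is read from this count. For Prss43, with 7 and 6 UMIs, no difference was detectable at this depth. The median of all genes was 0.30 on the log2 scale in this comparison, and TMM scaling moved every ratio by −0.29.

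The share of cells in which a gene was detected rests on the same UMIs, so it restates these levels and is no second measure. Low shares in KO cells follow from the choice of the genes. Cells were first thinned to 3000 UMIs, leaving out 173 cells of the XY control, 54 of KO E11.5, 93 of KO E11.75 and 3 of the XX control. Tox2 was found in 3.27% of XY control cells (2.42 to 4.31), 0.194% of KO E11.5 cells (0.0235 to 0.700) and 2.53% of KO E11.75 cells (1.57 to 3.84). It was found in 0 of 349 XX cells, which allows a share of up to 0.860% (3 counts; exact interval up to 1.05%) of cells with a UMI at this depth. At full depth 1.14% of XX cells held one, so the 0 sets no limit on cells that express Tox2. Gm28085 was found in 12.3%, 2.14%, 0.241% and 18.6% of cells in the order XY control, KO E11.5, KO E11.75 and XX control. The KO E11.75 share rests on 2 cells, and was 0.661% (6 of 908 cells) at 2000 UMIs and 1.04% (4 of 385) at 5000 UMIs, against 8.67% and 17.2% in the XY control. For Prss43 the shares were 3.81%, 0.194%, 0.481% and 3.72%, and for Cav1 they were 6.20%, 0.777%, 1.44% and 3.44%. Jaml was found in 3.41%, 0.291%, 2.77% and 0.573% of cells, and Rhox8 in 3.75%, 0.194%, 1.68% and 4.30%.

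Without thinning the shares were higher. In the deep XX control they reached 39.5% for Gm28085 and 15.9% for Prss43, against 15.8% and 5.67% in the XY control. Tox2 was instead at 5.42% in the XY control and 1.14% in the XX control. At least 1 of the 6 genes was seen in 27.2% of thinned XY control cells (24.9 to 29.5), 3.69% of KO E11.5 cells (2.62 to 5.03), 8.54% of KO E11.75 cells (6.73 to 10.7) and 27.2% of XX cells (22.6 to 32.2). Most cells with a UMI held a single one. The exceptions were Gm28085 and Rhox8 in the deep XX control, with means of 4.71 and 2.76 UMIs per cell with any and up to 29 and 17 in 1 cell.

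Free RNA in droplets gives a low share in cells that do not express a gene. In mesonephric mesenchyme, thinned to the same depth, Gm28085 was found in 0.318% of XY control cells, 0.0512% of KO E11.5 cells, 0.0441% of KO E11.75 cells and 0.235% of XX cells. Its mesenchymal level was 1.78%, 1.73%, 2.44% and 1.01% of its level in pre-supporting cells of the same sample. Prss43 was found in 0.0662% of XY control mesenchymal cells, far under its 3.81% in pre-supporting cells, and in 0.0128%, 0% and 0.117% of those of KO E11.5, KO E11.75 (0 of 2270, up to 0.132%) and the XX control. Jaml was found in 0.252%, 0.115%, 0.132% and 0.117% of mesenchymal cells in the order XY control, KO E11.5, KO E11.75 and XX control. For Rhox8 the shares were 0.397%, 0.0640%, 0.132% and 0% (0 of 1703, up to 0.176%). For Tox2 the mesenchymal shares were 0.662% in the XY control and 0.871% in KO E11.5, so the 0.194% in KO E11.5 pre-supporting cells lay below the share in mesenchyme. For Cav1 the KO E11.5 pre-supporting level of 2.65 CPM was near the mesenchymal 2.51 CPM. In KO E11.5 the Tox2 share was 0.120% in the coelomic epithelium and 0 of 1042 cells among interstitial progenitors (up to 0.288%), so mesenchyme is no measure of free Tox2 RNA. The 2 KO E11.5 pre-supporting cells with a Tox2 UMI were therefore read neither as background nor as expression. Median depth of the mesenchyme was 3573 to 4586 UMIs per cell in the XY E11.5 samples, 3293 in KO E11.75 and 14477.5 in XX control cells.

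The low levels in KO E11.5 were then read in cells with and without Sox9, since few of its pre-supporting cells carried a Sox9 UMI (51 of 1030 thinned cells, against 340 of 1468 in the XY control). In XY control cells without a Sox9 UMI, Gm28085 was found in 11.4% (9.64 to 13.4), Cav1 in 4.52% (3.38 to 5.90), Prss43 in 3.72% (2.70 to 5.00), Jaml in 3.63% (2.62 to 4.90), Rhox8 in 3.55% (2.55 to 4.80) and Tox2 in 2.57% (1.73 to 3.67). In KO E11.5 cells without a Sox9 UMI the same genes were found in 2.25%, 0.817%, 0.102%, 0.306%, 0.204% and 0.204%. These lower shares follow from the choice of the genes, since 979 of the 1030 KO E11.5 cells are in this class, and nothing is read from them. A cell without a Sox9 UMI at this depth may still express Sox9.

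Within the XY control, Cav1 was found in more cells with a Sox9 UMI, 11.76% (8.54 to 15.7) against 4.52% without. Tox2 was found in 5.59% (3.398 to 8.59) against 2.57% (1.73 to 3.67), with intervals that overlap slightly. The intervals of Jaml, Rhox8, Gm28085 and Prss43 overlapped as well. In KO E11.75 Jaml was found in 2.90% of cells without a Sox9 UMI (1.81 to 4.41) and Tox2 in 2.49% (1.48 to 3.91), with intervals that overlap those of the XY control. Rhox8 was found in 5.56% of the 108 cells with a Sox9 UMI (2.07 to 11.70) and 1.11% of the 723 without (0.479 to 2.17), again with a slight overlap. Only 8 thinned XX cells carried a Sox9 UMI, too few to describe.

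**Figure D3:**
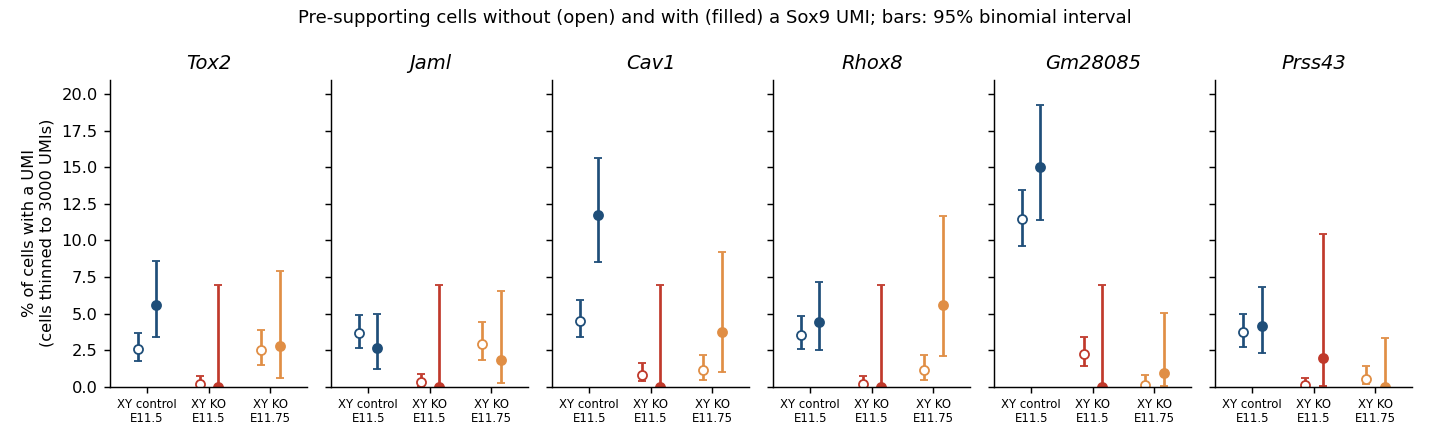
Share of pre-supporting cells with a UMI of each gene in the 3 XY samples, after thinning each cell to 3000 UMIs, for cells without (open) and with (filled) a Sox9 UMI. Bars are 95% binomial intervals. The open KO E11.5 points lie below the open XY control points for all 6 genes, and the filled points of KO E11.5 rest on 51 cells.

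Sertoli cells, the next state of the lineage, were present in the XY control (752 cells) and KO E11.75 (168 cells), with 24 in KO E11.5 and 2 from XX control gonads. Rhox8 was at 99.0 CPM in XY control Sertoli cells (411 UMIs) and 107 in KO E11.75 Sertoli cells (110 UMIs), a log2 ratio of 0.12 (−0.20 to 0.42). Tox2 was at 23.6 and 22.4 CPM, a log2 ratio of −0.05 (−0.80 to 0.59). For both genes the interval included 0, and under TMM scaling the ratios were −0.15 for Rhox8 and −0.32 for Tox2. Gm28085 was at 13.2 CPM in XY control cells (55 UMIs) and 2.92 in KO E11.75 (3 UMIs), 4.53-fold lower (1.47 to 22.6). It was the 1 of 3 members with enough UMIs that was at least 2-fold lower, beside 3% of 9354 genes, but it reached the minimum through the XY control alone and nothing is read from the count. Sertoli cells held 4152994 UMIs in all in the XY control and 1026574 in KO E11.75. Cav1 was at 9.15 CPM (38 UMIs) and 7.79 CPM (8 UMIs), with overlapping intervals. Prss43 had 18 UMIs in the XY control and 0 in KO E11.75. Jaml had 8 and 0, too few to compare at these totals.

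The sum of 7 Sertoli markers (Sox9, Amh, Dhh, Ptgds, Sox8, Aard and Fgf9) within pre-supporting cells was 250 CPM in XY control cells, 38.5 in KO E11.5, 122 in KO E11.75 and 41.9 in XX control cells, with no marker at 0. Sox9 alone gave 199.6 CPM of the XY control sum. Aard was at 31.7, 7.96, 20.3 and 27.7 CPM and Ptgds at 5.58, 3.65, 8.28 and 1.92 CPM in the same order. Amh, Dhh and Sox8 had at most 14 UMIs in any sample. The sum was low in the samples in which Tox2 and Jaml were low, though not every marker was, and its part in their levels was not tested. Endothelial markers (5 genes) summed to 29.7, 27.7, 29.2 and 12.1 CPM in the same order, against 2659 CPM in XY control endothelium, with Tek at 0 in XX control cells. It was low in XX control cells, where Cav1 was at 13.7 CPM against 25.6 in XY control cells, and its part in the Cav1 levels was not tested. Immune markers (6 genes) summed to 15.3, 4.31, 0.872 and 11.9 CPM. Cx3cr1 was at 0 in KO E11.5 and Ptprc and Tyrobp at 0 in KO E11.75. The immune sum was thus low in both KO samples, as Gm28085 and Prss43 were, and its part was not tested. In cells annotated as immune, Gm28085 was at 1.72 CPM in the XY control (1 UMI) and 1.88 in the XX control (3 UMIs). Erythroid markers (3 genes) summed to 253, 146, 256 and 117 CPM, lower in the samples in which Tox2 and Jaml were low, and their part was not tested. Cells annotated as immune held 1 to 3 Jaml UMIs per sample.

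**Figure D4:**
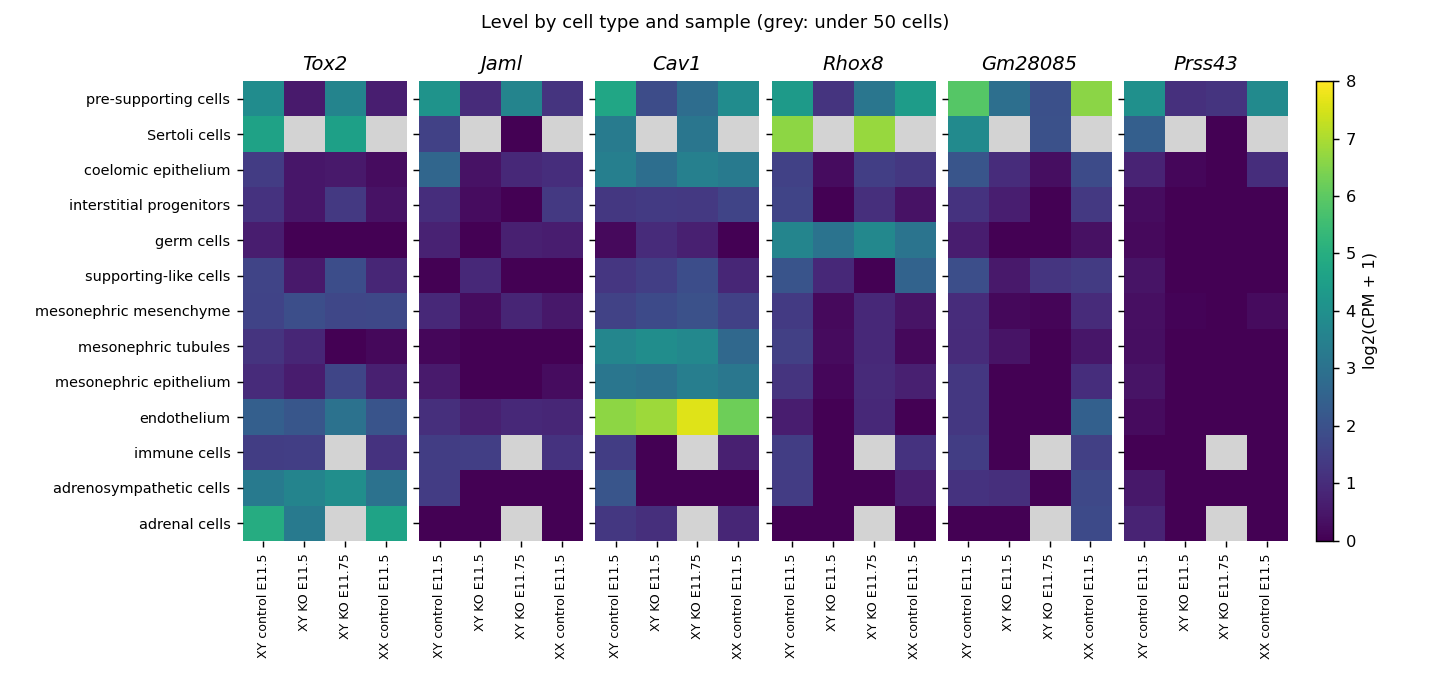
Levels of the 6 genes as log2(CPM + 1) in 13 cell types (rows) and 4 samples (columns). Grey marks fewer than 50 cells. In the XY control, Gm28085 and Prss43 were brightest in pre-supporting cells and Rhox8 in Sertoli cells, and Cav1 was brightest in endothelium of all 4 samples.

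Outside the supporting lineage the genes differed in where they were found. Prss43 and Gm28085 were the most restricted, with 71.7% and 71.4% of all their UMIs in XY control cells falling in pre-supporting cells, and 89.1% and 89.2% in XX control cells. In the XY control 50.2% of the Jaml UMIs came from pre-supporting cells, 25% of those of Tox2, 19.5% of those of Rhox8 and 17.6% of those of Cav1.

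After pre-supporting cells, Jaml was highest in the XY control in the coelomic epithelium, the surface layer from which supporting cells arise, at 5.28 CPM in XY control cells (57 UMIs), 0.301 in KO E11.5 (3 UMIs), 0.914 in KO E11.75 (4 UMIs) and 1.05 in XX control cells (5 UMIs). It was 17.6-fold lower in KO E11.5 (5.72 to 87.8) and 5.78-fold lower in KO E11.75 (2.14 to 21.95) than the XY control. Jaml was 1 of 2 members with enough UMIs in this tissue that was at least 2-fold lower in KO E11.5, beside 1.48% of 11719 genes, and 1 of 2 in KO E11.75, beside 1.38% of 11342 genes. Jaml reached the minimum through the XY control alone, so nothing is read from these counts. In pre-supporting cells of KO E11.75 the Jaml difference was 1.47-fold (1.06 to 2.08). The other member, Cav1, was at 9.92 CPM in XY control cells and 6.41 and 10.3 in the KO samples. Gm28085, with 36 UMIs in XY control cells, 10 in KO E11.5, 1 in KO E11.75 and 12 in XX control cells, did not reach the minimum of 50 UMIs there. Its mesenchymal level was also lower in the KO samples (1.03 CPM in XY control cells, 0.115 in KO E11.5 and 0.0691 in KO E11.75), and the part of free RNA in these counts was not tested.

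Cav1 was highest in endothelium, where caveolae abound, and there it was not low in the KO. It was at 98.7 CPM in XY control cells (541 UMIs), 113 in KO E11.5 (363 UMIs), 192 in KO E11.75 (215 UMIs) and 74.4 in XX control cells (184 UMIs). The log2 ratio over the XY control was 0.20 in KO E11.5 (0.002 to 0.39) and 0.96 in KO E11.75 (0.73 to 1.19). In mesonephric tubules it was at 11.70, 14.2 and 12.4 CPM in XY control cells, KO E11.5 and KO E11.75, and at 5.52 CPM in XX control cells.

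Tox2 was highest in adrenal cells of the XY control, at 30.03 CPM (41 UMIs), with 8.79 in KO E11.5 (8 UMIs) and 23.7 in XX control cells (29 UMIs). The KO level was 3.42-fold lower than the XY control (1.58 to 8.44), on 1 UMI fewer than the minimum of 50, whereas the log2 ratio between the controls was −0.33 (−1.08 to 0.38). The adrenal markers of the same cells summed to 667 CPM in the XY control, 370.2 in KO E11.5 and 452 in XX control cells, and their part was not tested. In mesonephric mesenchyme Tox2 was at 2.03, 2.76, 2.28 and 2.33 CPM in the order XY control, KO E11.5, KO E11.75 and XX control. Rhox8 was also found in germ cells, at 11.6, 7.33, 12.2 and 7.48 CPM in that order. All 3 intervals of its log2 ratio over the XY control in germ cells included 0, −1.56 to 0.14, −0.73 to 0.81 and −1.32 to 0.01.

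Genes related to the members by family or function were examined next. Of 11 caveola genes 7 had enough UMIs in KO E11.5, and Cav1 was the 1 that was at least 2-fold lower. The median log2 ratio of the other 6 was −0.18, beside −0.09 for all genes. In KO E11.75 their median was 0.46, beside 0.19 for all genes, and Cavin1 and Ehd2 were at least 2-fold higher, beside 4.91% of all genes. Cavin1 was only just past that line, at a log2 ratio of 1.04 (0.53 to 1.55) before the TMM shift of −0.20. Ehd2, an ATPase at the neck of caveolae, was at 7.10, 10.4, 23.8 and 4.72 CPM. Cav2, the partner of caveolin 1 that lies 17219 bases from it, had 9 UMIs in XY control cells and 1 to 3 in the other samples, and Cavin1, the coat protein of caveolae, was at 7.74, 6.80, 15.9 and 5.46 CPM. In the TOX family 3 of 4 genes had enough UMIs, and Tox3 and Tox4 were within 2-fold of the XY control in both KO samples and in XX control cells. Tox3 was still higher in both KO samples, with log2 ratios of 0.85 (0.16 to 1.57) in KO E11.5 and 0.95 (0.22 to 1.70) in KO E11.75. Of 13 genes of the JAM and CXADR family 8 had enough UMIs in KO E11.5, where Igsf11 and Mpzl2 were at least 2-fold lower (2 of 7, beside 3% of all genes), as was Jaml, which was chosen for this ratio. Of the 57 Igsf11 UMIs 44 came from the XY control, so nothing is read from the count. In KO E11.75 none was, and Igsf11 was at least 2-fold higher, at 13.5 CPM against 5.58 in XY control cells (log2 1.27, 0.69 to 1.87). Cxadr, the binding partner of JAML, was at 29.4, 31.2, 36.6 and 20.9 CPM. Mpzl2 was low in the same 2 samples as Jaml, with 20.04 CPM in XY control cells, 5.81 in KO E11.5, 27.0 in KO E11.75 and 3.39 in XX control cells.

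Other genes of the reproductive homeobox cluster were examined as well. Of 20 measured Rhox genes, spread over 916164 bases of chromosome X, 4 had enough UMIs, with most of them from the XY control. These 4 were at least 2-fold lower in both KO samples, beside 3% and 2.2% of all genes, but genes that reach the minimum through the sample where they are high tend to be called, and Rhox8 was chosen for its ratio, so nothing is read from the count. Besides Rhox8 these were Rhox5 at 14.6, 6.47, 6.75 and 9.88 CPM, Rhox6 at 9.64, 2.16, 2.40 and 4.42 CPM, and Rhox9 at 8.50, 2.82, 4.14 and 5.75 CPM in the order XY control, KO E11.5, KO E11.75 and XX control. The median log2 ratio of these 3 was −1.56 in KO E11.5 and −1.09 in KO E11.75. Their log2 ratios in XX control cells were −0.56 for Rhox5, −1.11 for Rhox6 and −0.56 for Rhox9, beside 0.07 for Rhox8.

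Prss43 lies in a run of 6 Prss genes within 66464 bases of chromosome 9. Its neighbour Prss45, which begins 2748 bases beyond its end, was at 6.34 CPM in XY control cells (50 UMIs), 0.498 in KO E11.5 (3 UMIs), 0.872 in KO E11.75 (4 UMIs) and 4.13 in XX control cells (28 UMIs). The next genes in the run, named after their values were seen, were low in both KO samples as well. Prss46 had 37 UMIs in XY control cells, 0 in KO E11.5, 0 in KO E11.75 and 26 in XX control cells, at least 9.43-fold lower in KO E11.5 and at least 7.18-fold lower in KO E11.75, taking 3 counts per sample as the floor. The upper limits of the exact intervals of its log2 ratios, −2.87 and −2.47, allow smaller folds. Prss50 had 40, 2, 0 and 30 UMIs, and was at least 7.76-fold lower in KO E11.75 by the same floor, with an upper limit of −2.59. Prss44, on the other side of Prss43, had 2, 0, 0 and 8 UMIs, and Prss42 had none. Elsewhere in the genome, Prss23, Prss35 and Prss36 were within 2-fold of the XY control in both KO samples. Prss12, outside the run and also named after its values were seen, had 26, 4, 4 and 41 UMIs. Its log2 ratio was −2.17 in KO E11.5 (−4.29 to −0.79), −1.78 in KO E11.75 (−3.90 to −0.39) and 0.86 in XX control cells (0.13 to 1.64). Prss8 went the other way, with 13, 25, 24 and 8 UMIs and log2 ratios of 1.30 in KO E11.5 (0.31 to 2.42) and 1.64 in KO E11.75 (0.63 to 2.76), and Prss41 had 1, 10, 5 and 2 UMIs. These 3 genes had fewer than 50 UMIs in each KO comparison. Near copies in both families may share reads. Cell Ranger, run here at its default settings, leaves out reads that map to several genes, which can lower the counts of such copies.

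Around Gm28085 the genes moved differently. Xrn1, the exonuclease gene that contains it on the other strand, was at 57.3, 61.0, 102 and 82.6 CPM, with a log2 ratio in KO E11.5 of 0.09 (−0.11 to 0.29). Gk5, a glycerol kinase gene 78688 bases away, was at 224.5, 94.0, 75.2 and 258 CPM (1770, 567, 345 and 1748 UMIs), low in both KO samples and kept in XX control cells like Gm28085 itself. Cell Ranger at its default settings counts reads on the strand of the gene. Beside Jaml, Scn2b was at 12.6, 3.48, 13.9 and 4.72 CPM, low in the same 2 samples as Jaml, while Mpzl3 had 11 to 23 UMIs per sample. The neighbours of Tox2 (Gtsf1l and Jph2), the nearest Rhox genes (Rhox7a and Rhox7b), C78334 and Met had at most 7 UMIs in any sample.

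**Figure D5:**
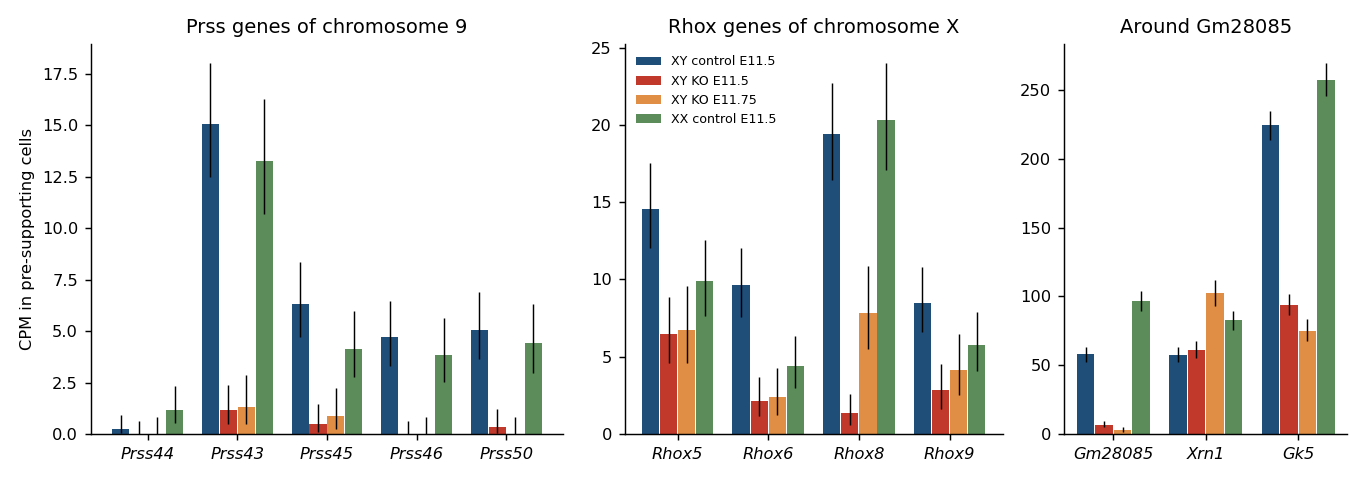
CPM in pre-supporting cells of the 4 samples for Prss genes beside Prss43 in their order along chromosome 9, Rhox genes with enough UMIs along chromosome X, and Gm28085 with Xrn1 and Gk5. Error bars are 95% Poisson intervals. Prss43, Prss45, Prss46 and Prss50 were low in both KO samples and present in both controls, whereas Xrn1 was not low in either KO sample.

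Lists of genes from the 2 fates of the lineage were counted in the same way. Of 20 Sertoli-side genes 16 had enough UMIs, of which 8 were at least 2-fold lower in KO E11.5 (beside 3% of all genes), 4 in KO E11.75 (2.2%) and 9 in XX control cells (2.26%). Fgfr2, a receptor for FGF9, was instead at least 2-fold higher in KO E11.75, at 139.7 CPM against 44.9 in XY control cells. The median log2 ratios were −1.24, −0.12 and −1.24. Several of the Sertoli-side genes called lower, among them Sry, Fgf9, Gatm and Spry4, reached the minimum of UMIs through the XY control. Sry is also Y-linked, so XX cells cannot carry it. Nothing is therefore read from the counts of lower Sertoli-side genes. Sox9, Fgf9, a signal that sustains Sox9, and Cst9 were at least 2-fold lower in both KO samples, with Fgf9 at 9.26, 2.65, 2.61 and 1.18 CPM and Cst9 at 65.8, 19.9, 20.05 and 34.7 CPM. Of 14 measured granulosa-side genes with enough UMIs, 1 (Kitl) was at least 2-fold lower in KO E11.5 and 0 in KO E11.75 and the XX control. In KO E11.75, 5 of the 14 (Foxl2, Fst, Bmp2, Irx3 and Axin2) were at least 2-fold higher than the XY control, beside 4.91% of all genes. None was in KO E11.5 (beside 0.99%), and Fst, an activin antagonist, was in XX control cells (1 of 14, beside 0.815%), with a log2 ratio of 1.02. The median log2 ratio of the 14 was 0.24 in KO E11.5, 0.65 in KO E11.75 and 0.27 in XX control cells. This list was chosen with earlier results of these data known, and KO E11.75 also differs from the XY control in stage. Nothing is therefore read from the counts of higher granulosa-side genes either.

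Genes with the most similar profile were sought over 48 sums of sample and cell type with at least 50 cells, among 9614 genes. Points share samples and depth, so Pearson's r of log2(CPM + 1) is a description. The 48 sums include pre-supporting cells of the 4 samples, whose KO and XY control values chose the members. Matching levels there are therefore partly built in for the genes named, and nothing is read from them. Gm28085 and Prss43 were among each other's 3 closest genes, at r = 0.87. The other pairs set side by side above were not alike over all cell types, with r = 0.15 for Tox2 and Jaml and 0.03 for Cav1 and Rhox8. Among pairs across the patterns, r was 0.62 for Jaml and Prss43 and 0.54 for Jaml and Gm28085. It was 0.54 for Rhox8 and Prss43, 0.53 for Rhox8 and Gm28085, and at most 0.36 for the rest. Beside Prss43, the closest to Gm28085 were Ctrb1 (0.88) and Chst4 (0.87), and the closest to Prss43 were Klk1 (0.90) and Cga (0.87). Klk1, a kallikrein protease gene, was at 26.0, 4.15, 1.74 and 57.8 CPM in pre-supporting cells, low in both KO samples and highest in XX control cells. For Jaml the closest were Pla2g2f (0.67), Cga (0.64) and Pitpnm3 (0.62). Pla2g2f, a secreted phospholipase gene, was at 18.9, 2.82, 15.9 and 2.95 CPM, the order of Jaml. For Rhox8 they were Gm31659 (0.85), Dmrt1 (0.85), a factor that maintains Sertoli fate after birth, and Gstm6 (0.82). For Cav1 they were Hapln1 (0.81), Ramp2 (0.80) and C130074G19Rik (0.79), and for Tox2 Pak3 (0.74), Ankrd13a (0.71) and Plcb4 (0.71).

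Levels were also compared between the 2 technical runs of a sample. Between the runs of the XY control, the log2 ratio of Gm28085 was −0.35 (−0.63 to −0.08) and that of Rhox8 −0.52 (−1.01 to −0.05). In the XX control they were 0.27 (0.05 to 0.50) and −0.57 (−1.09 to −0.06). The intervals of the other 14 of 18 run comparisons included 0. The runs repeat 1 pool and hold no variation between embryos, clones or samples.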

How the data were processed

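Gonads with mesonephros were dissociated, fixed in methanol and profiled by 10x Chromium 3′ v3.1 single-cell RNA sequencing. The authors aligned reads to mm10 with Cell Ranger 6.1.1, filtered cells in Seurat by mitochondrial and beta globin share, UMIs and genes for XY samples and by removing low-quality clusters for the XX sample, and removed doublets. They deposited a table of raw UMI counts per gene and cell with their cell type annotation, which was used as given. Their pre-supporting type carries the label Bipotential progenitors, Sertoli cells the label Supporting and coelomic epithelium the label Epithelial.

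Counts were summed per sample and cell type and divided by the total (CPM), with exact 95% Poisson intervals. Shares of cells carry exact Clopper-Pearson intervals after thinning to 3000 UMIs per cell. Ratios were taken on the log2 scale with a prior count of 0.5 and an exact binomial interval. With 1 sample per group there was no test and no p-value, and all intervals and floors cover counting error only. A gene counted in the background had at least 50 UMIs over both samples, and called means at least 2-fold lower, or higher where stated. Folds against 0 used a floor of 3 counts. The genes named besides the 6 are their nearest neighbours, family and pathway lists, markers and the 3 genes of most similar profile per member among genes with at least 200 UMIs. The 6 genes and all lists were chosen with earlier results of these data known. Alternatives were TMM scaling (edgeR 4.0.16, R 4.3.3), totals leaving out Gm42418 and the globin, ribosomal protein and mitochondrial genes, single runs, deep cells, another prior, mean CPM over cells, merging with Sertoli cells, Sox9 classes and other minimums and depths. Python 3.11.15, numpy 2.4.6, scipy 1.17.1 and pandas 2.3.3 were used, and the calculations were tested on simulated data.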

Additional observations from a re-analysis of the deposited data

Results flagged for a closer look

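A pair of members moved in another cell type in the opposite direction to pre-supporting cells. Cav1 in endothelium was above the XY control by 0.20 on the log2 scale in KO E11.5 (0.002 to 0.39) and by 0.96 in KO E11.75 (0.73 to 1.19), whereas in pre-supporting cells the same ratios were −3.23 and −1.998. Tox2 in mesonephric mesenchyme was above the XY control by 0.44 in KO E11.5 (0.03 to 0.86, 120 against 87 UMIs), beside −4.57 in pre-supporting cells. With 1 sample per group the difference between cell types was not tested, and the intervals cover counting error only. The lower bounds of the ratios in KO E11.5 lie close to 0. The 5 endothelial markers were also higher in endothelium of KO E11.75, at 3592 CPM against 2659 in the XY control, and their part was not tested. TMM factors there, 0.996 in the XY control and 1.17 in KO E11.75, lower the KO E11.75 ratio of Cav1.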

How the results depend on the processing

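The number of the 6 genes at least 2-fold lower in KO E11.5 was 6 under every alternative run. That follows from the choice of the genes. In KO E11.75 the number was 4, and 3 after merging with Sertoli cells or in cells with a Sox9 UMI, as Rhox8 was then under 2-fold. At a threshold of 4-fold it was 2, as Rhox8 was 2.47-fold lower and Cav1, 4.05-fold lower in CPM, fell just short with the prior count (log2 −1.998). In the XX control it was 2, 3 in run 1 alone or after merging, and 4 in cells with a Sox9 UMI, a class added after seeing the data. Nothing is read from these counts, which stand without the share of all genes. In cells with a Sox9 UMI, taken at full depth, the XX over XY control ratio of Gm28085 was −0.027 (−0.48 to 0.39) in place of 0.74, an interval that includes 0. In the class taken after thinning, with 8 XX cells, Gm28085 was instead at 209 CPM against 70.1 in XY control cells. KO E11.5 cells of the class taken after thinning held 0 or 1 UMI of each of the 6 genes. Over the alternatives set out at the start, Rhox8 moved most in KO E11.5, from −5.61 to −2.63, and its XX ratio ran from −1.20 to 0.39. Its KO E11.75 ratio was −1.92 in cells without and −0.17 in cells with a Sox9 UMI, and the XX ratio of Cav1 −0.30 and −3.96 (2 UMIs). The cause was not tested. Without thinning 15 shares of cells moved outside their interval, and 11 and 15 did at 2000 and 5000 UMIs. The shares of all genes at least 2-fold lower moved from 3%, 2.2% and 2.26% to 4.21%, 3.13% and 3.27% at a minimum of 20 UMIs, and to 1.67%, 1.399% and 1.14% at 200 UMIs (KO E11.5, KO E11.75 and XX control over XY control). No paired analysis was possible because each group holds 1 sample, and leaving out a replicate was not possible for the same reason. Depth limits the KO values of Tox2, Jaml, Rhox8 and Prss43, which rest on 3 to 8 UMIs in KO E11.5.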
